A study of Caenorhabditis elegans with 8 samples.

Results

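The genes described here encode proteins of the mitochondrial respiratory chain and of the ATP synthase that are carried in the nucleus of *C. elegans*. They were chosen by name, as the probe sets whose single symbol starts with nduf, nuo, cox, cyc, ucr, isp, atp, sdha, sdhb, sdhd, mev or gas. The locus T20H4.5, which the annotation lists as *ndus-8*, was added to them. Earlier results of these data were known when this choice was made. This gave 46 genes with 1 probe set each, of 25478 genes that a probe set names alone and 29317 probe sets in all. They are 13 genes of complex I, 5 of complex II, 7 of complex III, 2 cytochrome c genes, 14 genes of complex IV and 5 of complex V. The label fits all but 7 of them. *cox-10*, *cox-11*, *cox-14*, *cox-15*, *cox-17*, *cox-18* and *cox-19* encode factors that build complex IV and are not parts of it, so they are given apart.

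The respiratory chain lies in the inner mitochondrial membrane. Complex I takes electrons from NADH and complex II takes them from succinate, coenzyme Q carries them to complex III, and cytochrome c brings them to complex IV, which reduces oxygen. Complexes I, III and IV pump protons as they do so, and complex V, the ATP synthase, uses the proton gradient to make ATP. Most subunits are encoded in the nucleus, and a small set is encoded in the mitochondrial genome. In *C. elegans*, mutants of several of these genes, among them *gas-1*, *nuo-6*, *isp-1* and *mev-1*, are known for altered lifespan or stress resistance.

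Whole hermaphrodites at day 1 of adulthood were profiled on Affymetrix gene arrays. There were 4 samples of *dyf-1(mn335)* and 4 of wild-type (N2). *dyf-1* encodes a protein of intraflagellar transport, and *dyf-1(mn335)* worms lack the distal segments of their sensory cilia. Each sample pooled many synchronised worms, and the strains are described as differing in the *dyf-1* allele and in no treatment. Values are log2 expression values, so that a difference of 1 is a 2-fold change, and differences are given as *dyf-1(mn335)* over wild-type with their standard error (SE).

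Over all 29317 probe sets, limma called 6.56% higher and 3.46% lower in *dyf-1(mn335)* at an adjusted p under 0.01. The *dyf-1* transcript itself ranged over log2 values of 6.85 to 7.48 in the mutant arrays, against 5.61 to 6.26 in the wild-type arrays. No source used here describes the lesion of the allele, so this level is no check of the labels. The replicate 4 arrays of both strains stood apart from the others. Replicates 1 to 3 correlated among themselves at 0.993 to 0.994 in *dyf-1(mn335)* and at 0.987 to 0.992 in wild-type. Wild-type replicate 4 correlated with *dyf-1(mn335)* replicates 1 to 3 at 0.976 to 0.978 and with the other wild-type arrays at 0.958 to 0.974. *dyf-1(mn335)* replicate 4 correlated with its own group at 0.978 to 0.984 and with wild-type replicates 1 to 3 at 0.957 to 0.961. Where leaving out 1 or both of the replicate 4 arrays changed a call on a named pathway gene, a value from such a fit is given. Where it moved the calls of a list, at least 1 count from such a fit is given. The number of arrays limits the precision of every value, and a transcript level in whole worms does not tell fewer cells of a type from less RNA per cell.

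Of the 46 genes, 4 fell in *dyf-1(mn335)* and 0 rose at an adjusted p under 0.01 (limma), where 3.46% and 6.56% of all probe sets did so. The 4 were the complex IV gene *cox-6C*, the complex I genes *nduf-9* and *ndus-8* and the cytochrome c gene *cyc-2.2*. At an unadjusted p under 0.05, 19 of the 46 were lower and 0 higher, against 20% and 19% of all probe sets. The difference was negative in 37 members and positive in 9, while 46.6% of all probe sets were positive. The median log2 fold change of the members was -0.26, against -0.038 over all probe sets, and single members ranged between -1.82 for *cox-17* and 0.72 for *sdha-1*. In 10 members every mutant array lay below every wild-type array, which was so for 11.1% of all probe sets, and in 0 members did every mutant array lie above, which was so for 12.6%. These 10 were *nuo-4*, *nduf-9*, *ndus-8*, *isp-1*, *cyc-2.2*, *cox-5A*, *cox-5B*, *cox-6B*, *cox-6C* and *cox-18*. Any gene without overlap has p = 0.0286 in an exact two-sided permutation test, the smallest p that 4 arrays against 4 allow. This p therefore adds nothing to the lack of overlap.

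**Figure D1:**
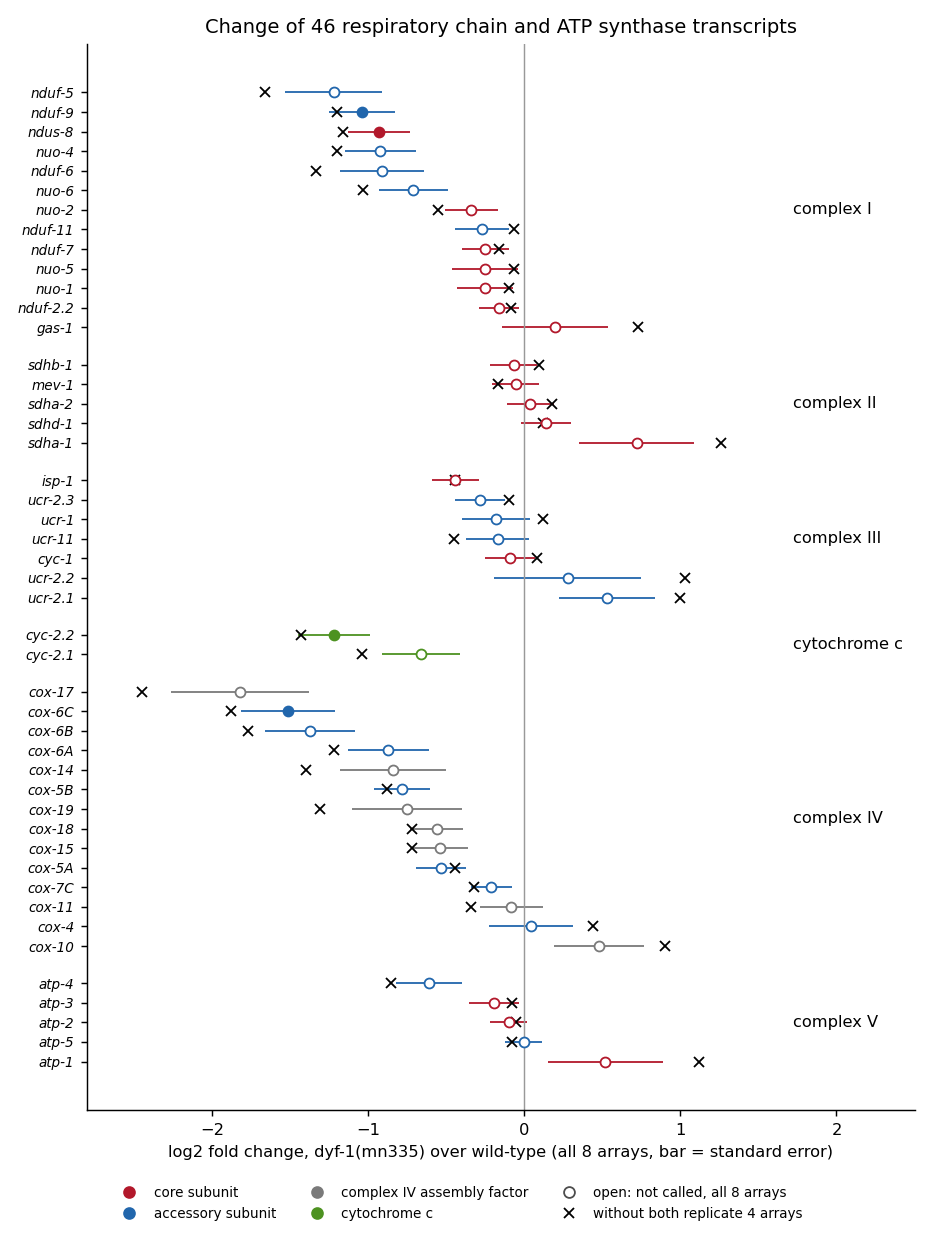
Log2 fold change of each of the 46 genes, *dyf-1(mn335)* over wild-type, grouped by complex and ordered within it. Circles are values from all 8 arrays with their standard error, filled where the adjusted p was under 0.01, crosses are values without both replicate 4 arrays, and colours mark core subunits, accessory subunits, assembly factors and cytochrome c. The 4 filled circles, at -0.93 to -1.51, all lie on the side of lower values in the mutant.

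The number of calls depended on single arrays. Without wild-type replicate 4, 15 members were lower and 3 higher, where 12.9% and 13.3% of all probe sets were. Without *dyf-1(mn335)* replicate 4, *cyc-2.2* alone was called, where 2.46% of all probe sets were lower and 5.99% higher. Without both replicate 4 arrays, 19 members were lower and 6 higher, where 16.3% and 17% of all probe sets were, and the 4 members above were among them. When any one of replicates 1 to 3 of either strain was left out, limma called 0 members in either direction, with 16 to 20 of them lower and 0 higher at an unadjusted p below 0.05. In these 6 fits the adjusted p of the 4 members lay between 0.0119 and 0.0333. Their log2 fold changes stayed close to those from all arrays, at -1.06 to -0.95 for *nduf-9*, -0.94 to -0.84 for *ndus-8*, -1.31 to -1.04 for *cyc-2.2* and -1.60 to -1.38 for *cox-6C*.

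Complex I is the NADH dehydrogenase, with a set of core subunits that also exist in bacterial enzymes and accessory subunits that surround them. Of its 13 members 2 fell and 0 rose (limma, 6 lower and 0 higher with an unadjusted p under 0.05), and their median log2 fold change was -0.34. Over all probe sets 3.46% fell and 6.56% rose, and 20% were lower and 19% higher at that unadjusted p. *nduf-9* encodes an accessory subunit, the counterpart of mammalian NDUFA9. It had log2 values of 8.19, 8.19, 8.24 and 8.01 in *dyf-1(mn335)* arrays 1 to 4 and of 9.42, 9.46, 9.32 and 8.57 in wild-type arrays 1 to 4. The strains did not overlap, and wild-type replicate 4 lay between the other wild-type arrays and the mutant ones. *nduf-9* fell by 1.04 on the log2 scale (SE 0.21, 0.488 times the wild-type level, adjusted p = 0.0074 from limma). Without mutant replicate 4 its log2 fold change was -0.99 and no longer called (adjusted p = 0.0185).

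*ndus-8* encodes a core subunit that carries iron-sulphur clusters. Its levels on the log2 scale were 8.42, 8.55, 8.51 and 8.63 in the mutant arrays, against 9.70, 9.73, 9.53 and 8.88 in the wild-type arrays, again with wild-type replicate 4 as the lowest of its group and no overlap. The gene fell by 0.93 (SE 0.20, 0.524 times the wild-type level, adjusted p = 0.0094 from limma). This call sat next to the threshold, and it was lost after cyclic loess normalisation between arrays. It was also lost without mutant replicate 4, at a log2 fold change of -0.97 (adjusted p = 0.0169).

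*nuo-4*, an accessory subunit gene, had log2 values of 10.09, 10.19, 10.10 and 10.31 in *dyf-1(mn335)* and of 11.35, 11.27, 11.37 and 10.36 in wild-type. The strains were apart by a narrow margin, because wild-type replicate 4 sat just above the highest mutant array. The log2 fold change of -0.92 (SE 0.23) had an adjusted p of 0.019 from limma, and of 1.95e-04 without wild-type replicate 4. *nuo-6*, an accessory subunit gene whose mutants are known for long life, had values of 9.85, 9.96, 10.06 and 10.40 in the mutant, against 10.92, 11.01, 11.02 and 10.18 in wild-type. Here wild-type replicate 4 lay within the range of the mutant arrays. For *nuo-6* the difference was -0.71 on the log2 scale (SE 0.22, adjusted p = 0.040), and without wild-type replicate 4 it was -0.92 (adjusted p = 0.0019).

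The accessory genes *nduf-5* and *nduf-6* had the same shape. *nduf-5* ranged over 7.69 to 8.25 in the mutant arrays, while wild-type replicates 1 to 3 were at 9.59, 9.34 and 9.52 and wild-type replicate 4 at 8.16. Its log2 fold change of -1.22 (SE 0.31, adjusted p = 0.020) was -1.55 without wild-type replicate 4 (adjusted p = 2.14e-04). *nduf-6* ranged over 8.79 to 9.58 in the mutant, against 10.19, 10.21, 10.21 and 9.21 in wild-type, and its log2 fold change was -0.91 (SE 0.27, adjusted p = 0.037), or -1.16 without wild-type replicate 4 (adjusted p = 0.0019). In both genes only wild-type replicate 4 reached into the mutant range.

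The other complex I genes had smaller differences. *gas-1* and *nduf-2.2* are paralogous genes for a core subunit. *gas-1* had log2 values of 8.96, 8.88, 8.86 and 8.22 in *dyf-1(mn335)* and of 8.18, 8.17, 8.15 and 9.60 in wild-type. Replicates 1 to 3 of the mutant lay above replicates 1 to 3 of wild-type, whereas mutant replicate 4 sat beside wild-type replicates 1 to 3 and wild-type replicate 4 was the highest of all. The log2 fold change was 0.20 (95% interval -0.55 to 0.96, adjusted p = 0.68) with all arrays and 0.73 without both replicate 4 arrays (adjusted p = 9.67e-04). *nduf-2.2* averaged 11.19 ± 0.12 in the mutant and 11.36 ± 0.12 in wild-type (SD, n = 4 each), with an interval of -0.45 to 0.13 for the difference. The core subunit genes *nuo-1*, *nuo-2*, *nuo-5* and *nduf-7* and the accessory *nduf-11* had log2 fold changes of -0.25, -0.34, -0.25, -0.25 and -0.27, none with an unadjusted p under 0.05. Of these, *nuo-2* was called lower when wild-type replicate 4 and mutant replicate 4 were both left out (log2 fold change -0.55, adjusted p = 0.0039).

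Complex II, the succinate dehydrogenase, also works in the citric acid cycle, and all its subunits are nuclear. None of its 5 members was called (limma, 0 at an unadjusted p under 0.05 in either direction), and their median log2 fold change was 0.04, or -0.12 with each array centred on its median. *sdha-1* and *sdha-2* encode the flavoprotein subunit that oxidises succinate. *sdha-1* had log2 values of 9.05, 8.93, 8.92 and 8.42 in *dyf-1(mn335)* and of 7.85, 7.88, 7.39 and 9.32 in wild-type. All mutant arrays were above wild-type replicates 1 to 3, and wild-type replicate 4 was above all of them. With all arrays the *sdha-1* difference was 0.72 (SE 0.37, adjusted p = 0.18). It was 1.12 without wild-type replicate 4 (adjusted p = 0.0022).

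*sdha-2* averaged 10.37 ± 0.16 in the mutant and 10.33 ± 0.19 in wild-type (SD, n = 4 each), and its log2 fold change of 0.04 had a 95% interval of -0.29 to 0.37. Whether the changes of *sdha-1* and *sdha-2* differ from each other was not tested. *sdhb-1*, for the iron-sulphur subunit, and *mev-1* and *sdhd-1*, for the membrane anchors, had log2 fold changes of -0.068, -0.055 and 0.14, and their 95% intervals together spanned -0.41 to 0.51. The sign of these small differences was not stable. It turned for *sdhb-1*, *mev-1*, *sdha-2* and *sdhd-1* in at least 1 of the settings tried, and for *sdhb-1* it was positive, at 0.097, without both replicate 4 arrays.

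Complex III passes electrons from coenzyme Q to cytochrome c. None of its 7 members was called (limma, 1 lower and 0 higher with an unadjusted p under 0.05), with a median log2 fold change of -0.17 over all arrays. At that unadjusted p, 20% of all probe sets were lower and 19% higher. *isp-1* encodes the Rieske iron-sulphur protein, one of the catalytic subunits. It had log2 values of 9.43, 9.34, 9.36 and 9.24 in *dyf-1(mn335)* and of 9.77, 10.14, 9.52 and 9.68 in wild-type. All mutant arrays were below all wild-type arrays, and wild-type replicate 4 was not the lowest of its group. The log2 fold change was -0.44 (SE 0.15, adjusted p = 0.068 from limma), and it was still -0.44 without both replicate 4 arrays (adjusted p = 0.067).

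*ucr-2.1*, *ucr-2.2* and *ucr-2.3* are by name versions of the second core protein, a large subunit on the matrix side. *ucr-2.1* had log2 values of 9.88, 9.63, 9.95 and 9.17 in the *dyf-1(mn335)* arrays, against 8.68, 8.88, 8.89 and 10.07 in the wild-type arrays. *ucr-2.2* had values of 10.40, 10.15, 10.24 and 8.72 in the mutant arrays, against 9.02, 9.75, 8.91 and 10.70 in the wild-type arrays. In both genes wild-type replicate 4 was the highest of the 8 arrays, and mutant replicate 4 was the lowest mutant array. For *ucr-2.1* the log2 fold change was 0.53 (95% interval -0.17 to 1.23, adjusted p = 0.24), and 1.00 without both replicate 4 arrays (adjusted p = 7.33e-04). For *ucr-2.2* it was 0.28 (95% interval -0.77 to 1.33, adjusted p = 0.68), and 1.03 without these arrays (adjusted p = 0.0071). In *ucr-2.3* the same arrays were the highest and the lowest, but replicates 1 to 3 of the strains overlapped, at 10.04 to 10.16 in the mutant and 10.07 to 10.33 in wild-type. This gene averaged 9.96 ± 0.26 in the mutant and 10.24 ± 0.14 in wild-type (SD, n = 4 each), a log2 difference of -0.28 (adjusted p = 0.23). *cyc-1*, for cytochrome c1, *ucr-1*, for the first core protein, and *ucr-11*, for a small subunit, had log2 fold changes of -0.09, -0.18 and -0.17, and without both replicate 4 arrays *cyc-1* was at 0.08 and *ucr-1* at 0.12, neither called. The median of complex III also changed sign, to 0.08 without both replicate 4 arrays and 0.023 without mutant replicate 4 alone.

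Cytochrome c is the small haem protein that shuttles between complexes III and IV. *cyc-2.1* had log2 values of 9.68, 9.80, 9.97 and 10.44 in *dyf-1(mn335)* and of 10.81, 10.78, 10.97 and 9.99 in wild-type, where replicate 4 lay among the mutant arrays. Its log2 fold change was -0.66 (SE 0.25, adjusted p = 0.077), and -0.88 without wild-type replicate 4 (adjusted p = 0.0062). Neither strain had a bright signal for *cyc-2.2*, whose means lay under a log2 value of 5, where the size of a change is uncertain. It had values of 3.56, 3.99, 3.37 and 3.9 in the mutant arrays, against 5.44, 4.94, 4.82 and 4.48 in the wild-type arrays, with no overlap. *cyc-2.2* fell by 1.22 on the log2 scale (SE 0.23, adjusted p = 0.0056 from limma), and it was the only member called without mutant replicate 4 (adjusted p = 0.00999).

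Complex IV, the cytochrome c oxidase, had 7 nuclear subunits and 7 assembly factors among the members. The subunits had a median log2 fold change of -0.78 (1 fell and 0 rose, 5 lower at an unadjusted p under 0.05), and the assembly factors one of -0.56 (limma called 0, and 4 were lower at an unadjusted p under 0.05). Over all probe sets 3.46% fell, and 20% were lower at that unadjusted p. *cox-6C* had log2 values of 7.93, 7.96, 8.38 and 8.28 in *dyf-1(mn335)* and of 9.90, 10.03, 9.99 and 8.68 in wild-type. Replicates 1 to 3 of wild-type were close together, and wild-type replicate 4 was far below them, yet above every mutant array. *cox-6C* fell by 1.51 (SE 0.30, 0.351 times the wild-type level, adjusted p = 0.0070 from limma). Without wild-type replicate 4 the log2 fold change was -1.84 (adjusted p = 8.82e-05). Without mutant replicate 4 it was -1.56 and no longer called (adjusted p = 0.0145).

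*cox-6B* encodes a subunit on the side of the intermembrane space. Its log2 values were 7.71, 8.0, 8.06 and 8.25 in the mutant arrays, against 9.67, 9.69, 9.72 and 8.40 in the wild-type arrays. The strains did not overlap, but the log2 fold change of -1.37 (SE 0.29) missed the threshold (adjusted p = 0.011 from limma). *cox-5B*, for a subunit on the matrix side, had values of 9.48, 9.48, 9.58 and 9.35 in the mutant arrays, against 10.56, 10.47, 10.16 and 9.81 in the wild-type arrays. These did not overlap either, and the log2 fold change was -0.78 (SE 0.18, adjusted p = 0.014). Without wild-type replicate 4, both were called, at -1.69 for *cox-6B* (adjusted p = 1.08e-04) and -0.92 for *cox-5B* (adjusted p = 0.0011).

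Among the other subunit genes, *cox-6A* was at -0.87 (SE 0.26, adjusted p = 0.035) and had again a wild-type replicate 4, at 10.81, inside the mutant range of 10.67 to 10.96. Without that array the *cox-6A* value was -1.15 (adjusted p = 2.67e-04). *cox-5A* was different in that all 4 wild-type arrays lay together, at 11.44 to 11.82, with 10.74 to 11.28 in the mutant (log2 fold change -0.53, SE 0.16, adjusted p = 0.037). For *cox-7C* the difference was -0.21 on the log2 scale (adjusted p = 0.26). *cox-4*, whose product is among the largest nuclear subunits, had values of 11.49, 11.21, 11.32 and 10.43 in the mutant arrays, against 10.94, 11.16, 10.59 and 11.59 in the wild-type arrays. Replicates 1 to 3 of the mutant lay above replicates 1 to 3 of wild-type, while mutant replicate 4 was the lowest and wild-type replicate 4 the highest of the 8 arrays. The log2 fold change was 0.042 (95% interval -0.58 to 0.66) with all arrays and 0.44 without both replicate 4 arrays (adjusted p = 0.067).

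Of the assembly factors, *cox-17*, for a copper chaperone, had the most negative value of all 46 members. It had log2 values of 5.69, 5.88, 5.88 and 6.42 in *dyf-1(mn335)* and of 8.37, 7.80, 8.65 and 6.34 in wild-type. Wild-type replicate 4 lay below the highest mutant array, so that the strains overlapped, and the log2 fold change of -1.82 (SE 0.44) had an adjusted p of 0.018 from limma. Without wild-type replicate 4 it was -2.3 (adjusted p = 2.02e-04). *cox-19* and *cox-11*, which also serve copper delivery, had log2 fold changes of -0.75 (adjusted p = 0.15) and -0.082 (adjusted p = 0.79). *cox-14* and *cox-18*, which assist the mitochondrially encoded subunits, had values of -0.84 (adjusted p = 0.10) and -0.56 (adjusted p = 0.038). Without both replicate 4 arrays 3 of these were called lower, *cox-19* at -1.31 (adjusted p = 6.41e-04), *cox-14* at -1.4 (adjusted p = 2.14e-04) and *cox-18* at -0.72 (adjusted p = 0.0067).

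*cox-10* and *cox-15* encode consecutive enzymes of the synthesis of haem A, the haem of complex IV, and they stood on opposite sides of 0. *cox-10* had log2 values of 8.05, 7.80, 8.06 and 7.48 in the *dyf-1(mn335)* arrays, against 6.99, 7.05, 7.18 and 8.27 in the wild-type arrays. All mutant arrays lay above wild-type replicates 1 to 3 and below wild-type replicate 4. For *cox-10* the difference was 0.48 (95% interval -0.17 to 1.12, adjusted p = 0.25), and 0.78 without wild-type replicate 4 (adjusted p = 0.0063). For *cox-15* it was -0.54 (SE 0.18, adjusted p = 0.057), with mutant values of 8.60 to 9.08 and wild-type values of 9.06 to 9.65, and -0.72 without both replicate 4 arrays (adjusted p = 0.0095).

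In complex V, 0 of 5 members were called (limma, 1 lower and 0 higher with an unadjusted p under 0.05), and the median log2 fold change was -0.099. At that unadjusted p, 20% of all probe sets were lower and 19% higher. *atp-1* and *atp-2* encode the alpha and beta subunits of the catalytic head. *atp-1* had log2 values of 11.98, 11.57, 11.72 and 10.68 in *dyf-1(mn335)* and of 10.59, 10.80, 10.53 and 11.96 in wild-type. The replicate 4 array of each strain sat with replicates 1 to 3 of the other strain. The *atp-1* difference was 0.52 (95% interval -0.31 to 1.34, adjusted p = 0.33) with all arrays and 1.12 without both replicate 4 arrays (adjusted p = 6.71e-04).

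*atp-2* was steady, at 11.01 ± 0.062 in the mutant and 11.10 ± 0.11 in wild-type (SD, n = 4 each), and its log2 fold change of -0.099 had a 95% interval of -0.37 to 0.17. *atp-3*, for the subunit that connects the head to the stalk, had a log2 fold change of -0.19 (95% interval -0.54 to 0.17). *atp-4*, for a small stalk subunit, had values of 9.68, 9.66, 9.80 and 9.83 in the mutant arrays, against 10.49, 10.48, 10.73 and 9.71 in the wild-type arrays. Only wild-type replicate 4 lay in the mutant range, and the log2 fold change was -0.61 (SE 0.21, adjusted p = 0.063), or -0.82 without that array (adjusted p = 0.0012). *atp-5*, for another stalk subunit, averaged 11.71 in the mutant and 11.72 in wild-type, with a 95% interval of -0.27 to 0.26 for the difference.

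**Figure D2:**
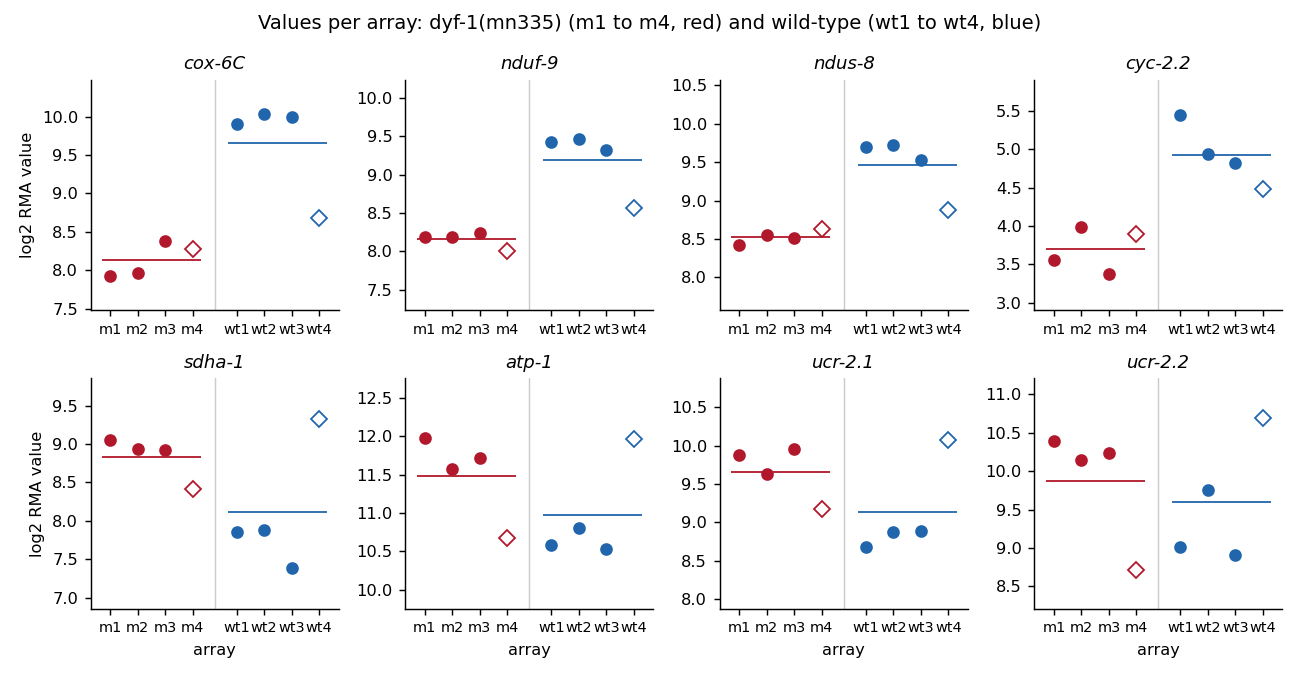
Log2 values per array of the 4 genes that fell (top) and of 4 genes with higher values in replicates 1 to 3 of the mutant (bottom), with *dyf-1(mn335)* arrays m1 to m4 in red and wild-type arrays wt1 to wt4 in blue. Open diamonds are the replicate 4 arrays, horizontal lines are strain means, and each panel spans 3 log2 units. In the top row the strains do not overlap, and in the bottom row wild-type replicate 4 lies near or above the mutant arrays.

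The members can also be grouped by the kind of subunit. Core subunits, those with a counterpart in bacterial enzymes, had a median log2 fold change of -0.099 over 17 genes of complexes I, II, III and V. Of these, 2 were lower at an unadjusted p under 0.05. Accessory subunits had a median of -0.57 over 20 genes of complexes I, III, IV and V, and 11 were lower at that p. Over all probe sets 20% were lower at that p. All 5 complex II genes (median 0.04) counted as core, and all 7 complex IV subunits (median -0.78) as accessory. These medians therefore also compare different complexes. Within complex I the medians were -0.25 for 7 core and -0.91 for 6 accessory genes. This grouping was made after the values had been seen and is a description without a test. In accessory genes of complex I the array medians, relative to each gene's mean over all arrays, were -0.56 to -0.31 in *dyf-1(mn335)* and 0.67 to 0.71 in wild-type replicates 1 to 3, whereas wild-type replicate 4 was at -0.26. In complex II the corresponding medians were -0.055 to 0.081 in the mutant and -0.18 to -0.024 in wild-type replicates 1 to 3, with wild-type replicate 4 at 0.16.

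**Figure D3:**
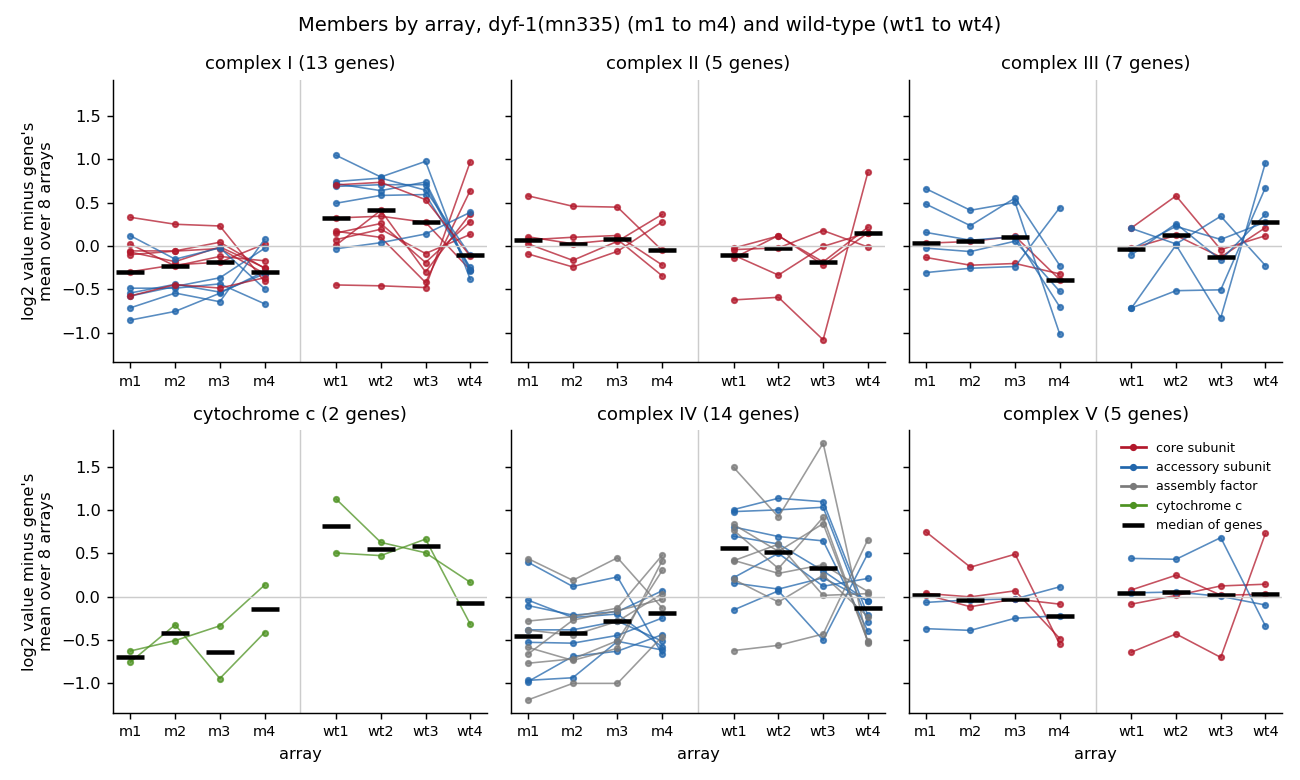
Log2 value of each gene minus its own mean over the 8 arrays, by complex, for *dyf-1(mn335)* arrays m1 to m4 and wild-type arrays wt1 to wt4. A line joins the values of 1 gene, colours mark core subunits, accessory subunits, assembly factors and cytochrome c, and black bars are medians over the genes of a complex. In complex IV the bars lie between -0.45 and -0.19 in the mutant, at 0.33 to 0.56 in wild-type replicates 1 to 3 and at -0.13 in wild-type replicate 4.

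Wild-type replicate 4 lay nearer the mean of mutant replicates 1 to 3 than the mean of wild-type replicates 1 to 3 in 33 of 46 members, and this was so for 59.8% of all probe sets. *dyf-1(mn335)* replicate 4 lay nearer the mean of wild-type replicates 1 to 3 in 20 of 46, against 40.4% of all probe sets. Both held for 18 members, against 27.4%. They included the genes with positive values *gas-1*, *ucr-2.1*, *ucr-2.2*, *cox-10* and *atp-1*, and the genes with negative values *nduf-6*, *cyc-2.1*, *cox-14* and *cox-19*. No label or method in the sources used here sets the replicate 4 arrays apart from the others.

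The transcripts of the mitochondrial genome, which encode further subunits of complexes I, III, IV and V, showed this in every gene. All 12 had a negative log2 fold change, with a median of -0.63, but limma called 0 of them (2 lower and 0 higher with an unadjusted p under 0.05). At that unadjusted p, 20% of all probe sets were lower and 19% higher. Among them *nduo-6* was dim in both strains, with means of 4.06 in *dyf-1(mn335)* and 4.69 in wild-type. In 12 of 12 the replicate 4 array of each strain lay nearer to replicates 1 to 3 of the other strain. *nduo-4*, for a proton-pumping subunit of complex I, had log2 values of 8.96, 9.03, 9.12 and 9.99 in *dyf-1(mn335)* and of 10.37, 10.07, 11.05 and 9.20 in wild-type. Its log2 fold change was -0.90 (SE 0.38, adjusted p = 0.11). *nduo-1*, for another membrane subunit of complex I, had a value of -0.60 (SE 0.26, adjusted p = 0.12). Without both replicate 4 arrays, 10 of the 12 were lower at an adjusted p under 0.01, where 16.3% of all probe sets were. *nduo-4* at -1.46 and *nduo-1* at -0.97 were among these 10, and the median of the 12 was -1.1.

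**Figure D4:**
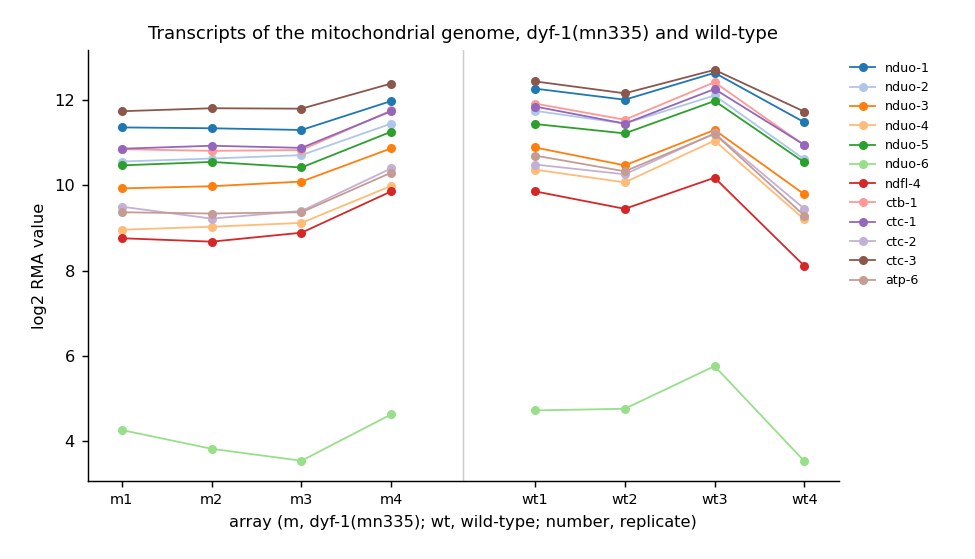
Log2 values of the 12 transcripts of the mitochondrial genome in *dyf-1(mn335)* arrays m1 to m4 and wild-type arrays wt1 to wt4, with a line for each gene. Levels are to be compared between arrays of 1 gene and not between genes. Mutant replicate 4 is the highest mutant array and wild-type replicate 4 the lowest wild-type array for each of the 12 genes. *nduo-6* is dim in both strains.

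Other genes of the pathway outside the symbol rule gave these counts. Of 25 further nuclear genes for subunits and inhibitors of the complexes, limma called 0 (15 lower and 0 higher with an unadjusted p under 0.05), with a median log2 fold change of -0.52. At that unadjusted p, 20% of all probe sets were lower and 19% higher. The lowest p-values were those of *C33A12.1*, listed as *ndua-5*, for an accessory subunit of complex I, at -1.5 (SE 0.32, adjusted p = 0.011), and of *asg-2*, for a membrane subunit of the ATP synthase, at -0.94 (SE 0.20, adjusted p = 0.011). Without both replicate 4 arrays 15 of the 25 were lower and 2 higher, where 16.3% and 17% of all probe sets were. In that fit *C33A12.1* was at -1.95 (adjusted p = 5.53e-05) and *asg-2* at -1.17 (adjusted p = 2.66e-04). Without wild-type replicate 4 alone 13 were lower and 1 higher, where 12.9% and 13.3% of all probe sets were. Of 9 further assembly factors and carriers 0 were called (6 lower at an unadjusted p under 0.05), with a median of -0.51 and the lowest p-values in *sft-1*, at -0.83 (adjusted p = 0.030), and *nuaf-1*, at -1.06 (adjusted p = 0.042). Among the 9, *ant-1.2*, *ant-1.3* and *ant-1.4* were dim in both strains, and *ant-1.4* was 1 of the 6. Without wild-type replicate 4 alone 2 of the 9 were called lower. Without both replicate 4 arrays 4 of the 9 were, against 16.3% of all probe sets, with *nuaf-1* at -1.5 (adjusted p = 1.67e-04).

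The 8 genes of coenzyme Q synthesis had a median of -0.39 and 0 calls (5 lower at an unadjusted p under 0.05, against 20% of all probe sets). *coq-4* was at -1.5 (adjusted p = 0.022) and *coq-5*, for a methyltransferase, at -0.82 (adjusted p = 0.037). Without wild-type replicate 4 these 2 were called lower, *coq-4* at -1.93 (adjusted p = 1.33e-04) and *coq-5* at -1.07 (adjusted p = 4.66e-04), and without both replicate 4 arrays 3 of the 8 were. Over all probe sets 12.9% and 16.3% were lower in these fits. The 18 genes of pyruvate dehydrogenase and the citric acid cycle, which feed the chain with electrons, had a median of 0.0011, and 9 of them were positive and 9 negative. Of these 18, 1 fell, where 3.46% of all probe sets did. *idhg-2*, for a subunit of isocitrate dehydrogenase, averaged 7.18 ± 0.09 in *dyf-1(mn335)* and 8.45 ± 0.57 in wild-type (SD, n = 4 each), with a log2 fold change of -1.28 (SE 0.26, adjusted p = 0.0079 from limma). Without mutant replicate 4 it was -1.32 and no longer called (adjusted p = 0.016). Of the 18, 5 were called higher and 1 lower without both replicate 4 arrays, against 17% and 16.3% of all probe sets. *idhg-1*, by name another version of the same subunit as *idhg-2*, was at -0.31 (adjusted p = 0.14).

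Markers of some tissues of the worm moved as well, and their part in these results was not tested. Of 10 neuronal markers 7 rose and 0 fell, where 6.56% and 3.46% of all probe sets did. Their array medians relative to each gene's mean were 0.35 to 0.61 in *dyf-1(mn335)* and -0.56 to -0.26 in wild-type. Those of 6 pharyngeal muscle markers, 2 of which rose, were 0.067 to 0.68 in the mutant and -0.67 to 0.0044 in wild-type. Of 10 body wall muscle markers limma called 0, and 5 were higher at an unadjusted p under 0.05, against 19% of all probe sets. Their array medians were 0.05 to 0.36 in the mutant, -0.42 to -0.34 in wild-type replicates 1 to 3 and 0.23 in wild-type replicate 4. Without wild-type replicate 4, limma called 6 of the 10 body wall muscle markers higher, and 5 pharyngeal markers higher and 1 lower, and these counts were equal without both replicate 4 arrays. Over all probe sets 13.3% were higher and 12.9% lower without wild-type replicate 4. Of 15 germline markers 0 were called, and 3 were lower at an unadjusted p under 0.05, against 20% of all probe sets. In their array medians mutant replicate 4 was at -0.32 and wild-type replicate 4 at 0.34, and the other arrays lay between -0.19 and 0.15. With both replicate 4 arrays left out, 5 germline markers were called higher and 1 lower, against 17% and 16.3% of all probe sets. Of 11 sperm markers 1 fell, and 6 of the 11 were dim in both strains (-0.31 to -0.24 in the mutant, -0.031 to 0.54 in wild-type). Of 10 intestinal markers 2 rose and 2 fell (-0.13 to -0.0065 in the mutant, -0.067 to 0.13 in wild-type). The fit without both replicate 4 arrays called 8 of 10 neuronal markers higher, 2 of 11 sperm markers lower and 3 of 10 intestinal markers in each direction. In this fit 17% of all probe sets were higher and 16.3% lower.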

How the data were processed

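Total RNA of pooled, synchronised whole worms was hybridised to 1 Affymetrix gene array per sample. The authors read the arrays with the R package oligo and normalised them by RMA (background adjustment, quantile normalisation and median polish), and the deposited values are log2 expression values. Probe sets were named from the platform annotation, which gives 1 symbol for 25546 of 29317 probe sets, several for 646 and none for 3125. All 46 members matched a RefSeq gene table by Entrez ID. *nuo-3* and *cox-16* were not analysed here. Probe sequences were not used, so cross-hybridisation between paralogues was not checked.

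The strains were compared in R 4.3.3 with limma 3.58.1 (lmFit, eBayes), two-sided, on all 8 arrays and with no covariate. P-values were adjusted by the Benjamini-Hochberg method over the 29317 probe sets, with a threshold of 0.01. A mean log2 value under 5 was called dim. P-values measure the spread between the 4 samples of a strain, which the legends call biologically independent. The fit was tested on simulated data.

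Members and gene lists were chosen with earlier results of these data known. Genes named by rule were those called, the 3 of smallest p per complex, paralogues, classical mutants, *atp-1*, *atp-2*, *ndus-8* and at most 2 per other list, and the naming of the remaining members followed a look at their values. Alternatives were another threshold, a filter on dim probe sets, an intensity trend with a robust spread, array weights, centring, cyclic loess, the replicate number as a block and leaving out arrays.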

Additional observations from a re-analysis of the deposited data

Results flagged for a closer look

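In 20 of 92 sets of 4 arrays (46 members in 2 strains), 1 array lay far from the other 3, with a gap to its nearest neighbour above Dixon's critical share of the whole range. For a set on its own, chance gives this in about 1 of 20 cases. The 92 sets share the same 8 arrays and are not independent, and the share over all probe sets was not computed. In 11 of the 20 the array was wild-type replicate 4, and in 8 of these it was the lowest wild-type array. The gap was 0.882 of the range in *nuo-2*, 0.899 in *nuo-4*, 0.875 in *nuo-6*, 0.979 in *nduf-6*, 0.839 in *nduf-9*, 0.869 in *cox-6A*, 0.964 in *cox-6B* and 0.902 in *cox-6C*. Wild-type replicate 4 was the highest of its group in *gas-1* (0.977), *ucr-2.1* (0.848) and *cox-10* (0.849). In 8 sets the array was *dyf-1(mn335)* replicate 4. It was the lowest mutant array in *gas-1* (0.86), *sdha-2* (0.864), *cyc-1* (0.844), *ucr-1* (0.89), *ucr-2.2* (0.852) and *atp-3* (0.873), and the highest in *ucr-11* (0.904) and *cox-19* (0.868). The remaining set was *mev-1* in wild-type, where replicate 3 was the highest array (0.882).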

How the results depend on the processing

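The 4 members called lower became 20 with array weights, 19 without both replicate 4 arrays, 14 at an adjusted p under 0.05 and 0 with the replicate number as a block, and leaving out 1 array gave 0 to 15. The 0 called higher became 4 with array weights, 6 without both replicate 4 arrays and 0 to 3 when 1 array was left out. Over all probe sets, 1015 were lower and 1924 higher. These became 5391 and 5489 with array weights, 4781 and 4977 without both replicate 4 arrays, 3419 and 3848 at an adjusted p under 0.05, 79 and 236 with the block, and 324 to 3788 and 932 to 3893 when 1 array was left out. Centring each array on its median gave 1653 lower and 1515 higher and moved the median of all probe sets from -0.038 to -0.19, so that the medians became -0.42 for all members, -0.12 for complex II and -0.25 for complex V. The median of complex I became -0.51 with array weights and -0.55 without both replicate 4 arrays, and that of complex III turned positive, at 0.08 without these, 0.029 with array weights and 0.023 without mutant replicate 4 alone. The sign turned for *sdha-2* (-0.12 after centring, -0.026 without wild-type replicate 3), *sdhb-1* (0.033 with array weights, 0.097 without both replicate 4 arrays, 0.036 without mutant replicate 4), *mev-1* (0.016 without mutant replicate 2), *sdhd-1* (-0.014 after centring), *cyc-1* (0.029 with array weights, 0.08 without both replicate 4 arrays), *ucr-1* (0.038 and 0.12 in these settings), *cox-4* (-0.11 after centring) and *atp-5* (0.059 after cyclic loess). Leaving out 1 array gave -0.15 to 0.025 for *cyc-1*, -0.26 to 0.023 for *ucr-1*, -0.12 to 0.27 for *cox-4*, -0.044 to 0.018 for *atp-5*, -0.026 to 0.12 for *sdha-2*, -0.14 to 0.036 for *sdhb-1* and -0.16 to 0.016 for *mev-1*. The cause was not tested. Of the single values of the 46 members under these alternatives, 576 kept direction and side of the threshold, 57 passed it newly, 32 lost it and 24 turned. Same-numbered arrays did not deviate together (correlations of -0.56 to 0.015, 0 of 4 above 0.1). The replicate 4 arrays stood apart and enter every deviation, so these correlations cannot tell whether the samples were paired. No member had several probe sets, so averaging them gave no value. *cyc-2.2* is the member whose low signal limits its value.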
